A study of Mus musculus with 1 sample.

Results

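The Reg family consists of genes for small secreted proteins with a C-type lectin fold, and the 6 members examined here, Reg1, Reg2, Reg3a, Reg3b, Reg3d and Reg3g, were taken by symbol from the 32285 genes of the deposited table. They were measured in 1 library of single cells from whole pancreas, labelled wildtype and of the genotype Scap f/f, in which Scap is floxed but no Cre recombinase is present. The pancreata of 5 to 6 mice, aged 2 weeks and of both sexes, were pooled before sequencing, and no label ties a cell to its animal. The library of Scap knockout mice was not analysed here, so no comparison between genotypes was made. With 1 library there is no replicate, no test was run, and every interval below covers the error of counting only.

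Reg proteins are made in the digestive tract, and their name comes from Reg1, which was first found in regenerating pancreatic islets. Reg1, also called lithostathine or pancreatic stone protein, is a secretory product of acinar cells, the cells that make and store digestive enzymes. Reg3b, also known as pancreatitis-associated protein, and Reg3g are induced in the injured pancreas and act against bacteria in the gut epithelium, and cytokines of the IL-6 and IL-22 type acting through the transcription factor STAT3 are known inducers. Reg3d is related to islet neogenesis associated protein. The mouse pancreas around weaning age is still growing, and acinar cells at this age carry a high load of enzyme transcripts.

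The 6 genes stood side by side in a stretch of 98216 bases on chromosome 6 (GRCm38, GENCODE M21 annotation), and no other annotated gene lay between them or overlapped them. In order of position they were Reg3b (chr6:78370657-78373466, plus strand), Reg3d (chr6:78375874-78378865, minus strand), Reg3a (chr6:78380709-78383827, plus strand), Reg2 (chr6:78395623-78408106, plus strand), Reg1 (chr6:78422711-78428667, plus strand) and Reg3g (chr6:78466269-78468872, minus strand). The gaps between neighbours widened from 2407 and 1843 bases in the Reg3b, Reg3d and Reg3a group to 11795 bases before Reg2, 14604 bases before Reg1 and 37601 bases before Reg3g. Reg4, a further Reg gene, lies on chromosome 3. The coding sequences of Reg1 and Reg2 were 82.6% identical, and those of the other pairs were between 60.0% and 76.4% identical, with Reg3b and Reg3g the closest of these. No pair shared a stretch of 31 bases in its annotated transcripts, apart from 5 such stretches shared by Reg3b and Reg3g, so reads of these 2 genes are the most open to assignment to the wrong member.

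Promoter sequence was compared because the members lie next to each other yet differed widely in level, as given below. The windows show bases 210 to 131 upstream of the transcript start of 5 members, in the build GRCm38.p6 of RefSeq and read on the strand of the gene. In Reg1 and Reg2 the capitals mark an E-box of the form CANNTG followed, after 6 bases, by TTCCCA. In Reg3a and Reg3d they mark CACCTG, and Reg3g has no capitals. Other matches to CANNTG or TTCCCA in these windows were left in small letters. Unmarked CANNTG stood 173 to 168 bases upstream in Reg3g, 152 to 147 in Reg3d and 195 to 190 in Reg2.
Reg1, chr6:78425773-78425852: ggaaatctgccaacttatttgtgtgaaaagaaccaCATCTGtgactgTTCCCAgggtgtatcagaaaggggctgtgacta
Reg2, chr6:78404945-78405024: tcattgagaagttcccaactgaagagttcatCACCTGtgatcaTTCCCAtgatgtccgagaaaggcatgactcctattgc
Reg3a, chr6:78380499-78380578: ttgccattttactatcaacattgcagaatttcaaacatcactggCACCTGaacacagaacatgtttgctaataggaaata
Reg3d, chr6:78378996-78379075: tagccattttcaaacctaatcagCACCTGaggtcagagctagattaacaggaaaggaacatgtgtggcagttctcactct
Reg3g, chr6:78469005-78469084: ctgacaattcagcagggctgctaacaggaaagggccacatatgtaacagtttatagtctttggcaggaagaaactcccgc

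An E-box near a TC-rich box is the arrangement known to be bound by PTF1, the acinar complex of Ptf1a and Rbpjl. The pair with this spacing ran from 175 to 158 bases upstream in Reg1 and from 179 to 162 bases upstream in Reg2. Reg2 was nonetheless lower in level than Reg3d, which lacks the pair, and a link of the pair to level was not tested. Among 32851 promoters of 250 bases, searched on both strands, 29 (0.0883%) held the pair with a gap of 6 bases, and neither the 26 digestive enzyme promoters nor the 8 promoters of granule and acinar factor genes that were matched held it. The spacing was chosen after the Reg sequences had been seen, and a match describes letters and not a bound site. Singly, the motifs were common. CANNTG stood in 66.2% of promoters and in all 6 members, TTCCCA in 21.6% and in 5 members, and CACCTG, which is one of the forms of CANNTG, in 17.2% and in 4 members. TTCNNNGAA, the letters of a STAT site, stood in 7.02% of promoters and in 2 members, Reg3b and Reg3d. The annotated gene starts of Reg1, Reg2 and Reg3b lie upstream of the RefSeq starts used here.

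The library held 11789 barcodes with 500 to 174899 unique molecular identifiers (UMIs, each standing for 1 captured transcript), and 10947 barcodes (92.9%), with a median of 2650 UMIs, passed limits of 800 and 100000 UMIs and of 15% mitochondrial UMIs. Clustering without the Reg genes gave 20 clusters in 18 classes, and the 1068 cells (9.76%) of clusters 5 and 7 were called acinar-like, since all 14 acinar markers were raised in each. Their median was 4518 UMIs, and 41.4% of all their UMIs came from the 29 digestive enzyme genes listed here, 2210010C04Rik not among them. Cluster 5 was shallow and poor in the nuclear RNA Malat1 (593 cells, median 3077 UMIs, Malat1 at 1624 UMIs in every 1000000), and cluster 7 was deep (475 cells, median 12001 UMIs, Malat1 at 4971 in every 1000000). A UMI of a T cell marker was present in 22.3% of acinar-like cells, and 4.40% of them were marked as doublets. Of the epithelial cells outside these clusters, 46 were duct-like, 23 endocrine-like and 96 of mixed epithelial markers, the last with a median of 31337 UMIs.

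Reg1 outweighed its relatives in acinar-like cells by more than 2 orders of magnitude. Levels are given as counts of the gene per 1000000 UMIs of the class (CPM). A 3′ library counts each transcript at its end, so that CPM of different genes can be set side by side without scaling to gene length. Reg1 had 572009 UMIs in acinar-like cells, a level of 52396 CPM (95% interval 52260 to 52532), and only 2 of all genes had more. It supplied 99.4% of the UMIs of the 6 members, whose summed level was 52703 CPM (52567 to 52839). Reg3d followed with 1598 UMIs or 146 CPM (139 to 154), rank 473 among all genes, and Reg2 with 1161 UMIs or 106 CPM (100 to 113), rank 682. Reg3a, at 288 UMIs and 26.4 CPM (23.4 to 29.6), and Reg3b, at 251 UMIs and 23.0 CPM (20.2 to 26.0), could not be put in order, since their intervals overlap. Reg3g was lowest with 50 UMIs and 4.58 CPM (3.40 to 6.04). Reg4 had 0 UMIs in acinar-like cells, where 3 UMIs would have stood at 0.275 CPM, and 1 UMI in the rest of the library.

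Detection per cell followed the order of the UMI counts, but not in proportion to them. Reg1 was present in 1067 of 1068 acinar-like cells and Reg3d in 571, while Reg2 was present in 256, Reg3a in 163, Reg3b in 86 and Reg3g in 39. After each cell was thinned to 800 UMIs, Reg1 remained in 99.7% of cells, Reg3d in 10.8% and Reg2 in 5.34%, and Reg3a (1.97%), Reg3b (1.69%) and Reg3g (0.468%) were left in few cells.

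Levels differed between the shallow and the deep cluster of acinar-like cells, and Reg1 was the highest member in both. Reg1 stood at 58434 CPM in cluster 5 and 50761 CPM in cluster 7, and Reg3d at 161 and 142 CPM with overlapping intervals. The level of Reg2 was 168 CPM in cluster 5 and 89.8 CPM in cluster 7, that of Reg3a 41.3 and 22.4 CPM, and that of Reg3b 37.4 and 19.1 CPM. Reg2 and Reg3d thus stood close together in cluster 5, where their intervals overlap, and Reg3d above Reg2 in cluster 7. Digestive enzymes took 47.2% of UMIs in cluster 5 and 39.9% in cluster 7, and the part of depth, enzyme load or nuclear RNA in these differences was not tested.

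Depth within the acinar-like cells moved with the level of Reg1 only at its low end. The 70 cells of 800 to 1500 UMIs held Reg1 at 20262 CPM with 28.2% enzyme UMIs, and the 258 cells of 1500 to 3000 UMIs at 42191 CPM with 42.1%. From there on the level was nearly flat, at 52403, 53504, 54073 and 52956 CPM in cells of 3000 to 6000, 6000 to 12000, 12000 to 25000 and over 25000 UMIs. Reg3d lay between 109 and 161 CPM over the same bins. Reg2 stood at 48.5 CPM in the shallowest bin, from 4 UMIs, at 191 CPM at 3000 to 6000 UMIs and at 87.2 CPM in the deepest. Of the 238 Reg2 UMIs behind the 191 CPM, 66 came from 1 cell of 5357 UMIs. No course of Reg2 with depth is therefore read.

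Most UMIs of every member lay in acinar-like cells, and Reg1 was found at lower levels in every other class. Acinar-like cells held 78.3% of all Reg1 UMIs, 83.0% of Reg2, 76.0% of Reg3a, 68.4% of Reg3b, 75.2% of Reg3d and 71.4% of Reg3g, and the mixed epithelial cells held a further 15.4% of Reg1. The level of Reg1 was 33757 CPM in the mixed epithelial class and 13888 CPM in a class that mixed acinar and fibroblast markers. It was 5152 CPM (4833 to 5488) in endocrine-like and 4931 CPM (4729 to 5141) in macrophage and neutrophil-like cells, which do not differ beyond their intervals. Next in order were duct-like cells at 4105 CPM, dendritic cell-like cells at 2608 CPM and endothelial-like cells at 1959 CPM. Schwann-like cells at 1493 CPM (1331 to 1670) and mural-like cells at 1279 CPM (1195 to 1366) overlapped. NK and innate lymphoid-like, B cell-like, mesothelial-like, red blood cell-like and T cell-like cells lay between 838 and 986 CPM, with cycling cells (614 CPM), fibroblast-like cells (598 CPM) and a class of mostly marked doublets (581 CPM) at the bottom.

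**Figure D1:**
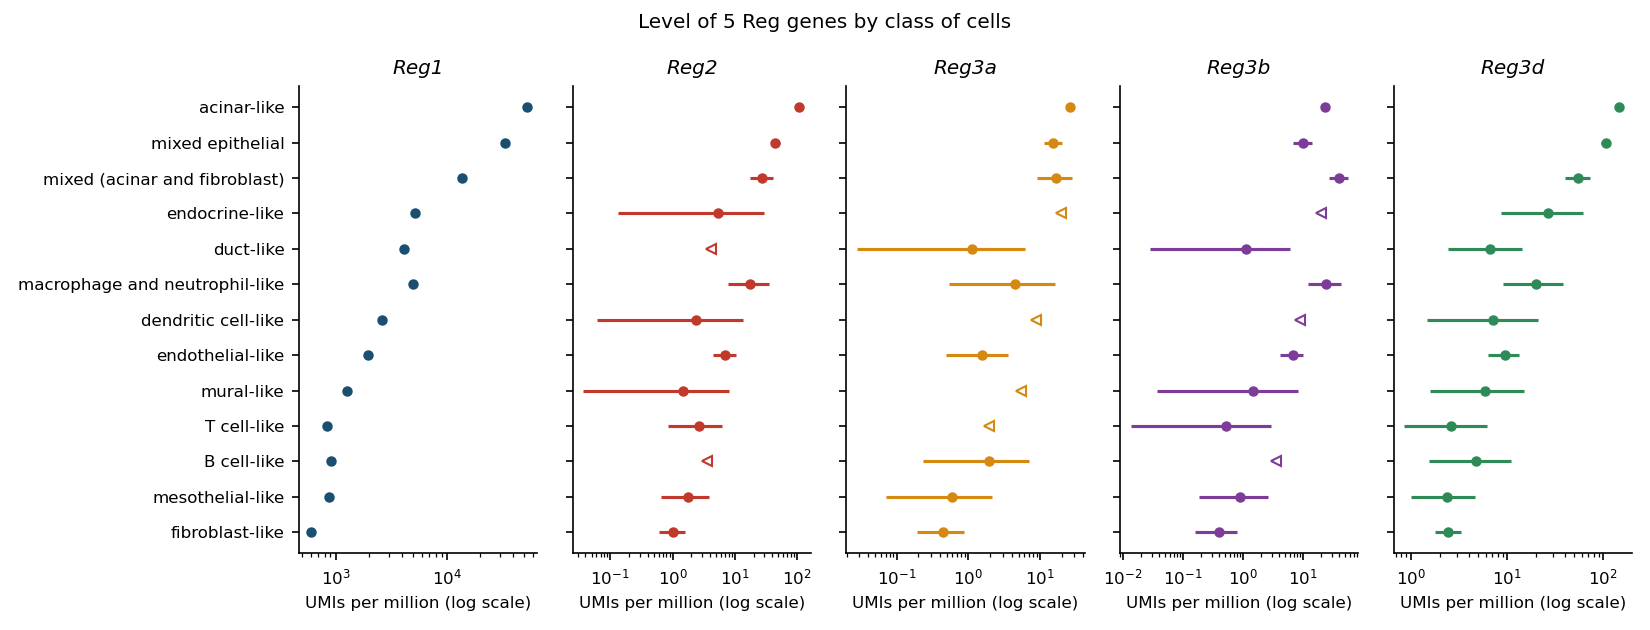
Level of 5 Reg genes in 13 classes of cells, in CPM on a log scale, with exact 95% Poisson intervals as bars; open triangles mark the upper limit where a class had 0 UMIs. Reg1, Reg2, Reg3a and Reg3d were highest in acinar-like cells, and the highest value of Reg3b was in the class of mixed acinar and fibroblast markers, where 22 of its 33 UMIs came from 1 cell.

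In droplet data, transcripts that leak from broken cells enter droplets of every type, and 1 source keeps its genes in a fixed ratio. Reg1 was therefore set against the summed digestive enzymes. Acinar-like cells had 126 Reg1 UMIs per 1000 enzyme UMIs, the mixed epithelial cells 121, endothelial-like cells 119, endocrine-like cells 117, macrophage and neutrophil-like cells 104, duct-like cells 101 and fibroblast-like cells 84.5, and the lowest class had 69.2. The 9386 cells outside the epithelial classes had 92.5, at a Reg1 level of 902 CPM. A Reg1 UMI was present in 75.5% of fibroblast-like cells, at a median depth of 2669 UMIs, and in 37.1% of them after thinning to 800 UMIs. Presence in any other class is to be read beside these shares. The Reg1 count of fibroblast-like cells was 0.668 times what the acinar ratio of Reg1 to enzymes gives (0.656 to 0.681). The source of these UMIs was not tested. For the other members the level outside the epithelial classes was 3.54 CPM for Reg3d, 1.97 for Reg2, 1.48 for Reg3b, 0.757 for Reg3a and 0.182 for Reg3g. The Reg3d count there was 1.03 times what the acinar ratio of Reg3d to enzymes gives, and the Reg2 count was 0.786 times that (0.607 to 1.00).

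Reg3b was the member with the most UMIs outside acinar-like cells relative to enzymes, and single cells carried them. The macrophage and neutrophil-like class had 9.28 times the Reg3b count that the acinar ratio gives, the endothelial-like class 7.38 times and the class of mixed acinar and fibroblast markers 4.41 times. In the macrophage class all 11 Reg3b UMIs came from 1 cell of 5399 UMIs, 40.7% of which were enzyme UMIs. In the endothelial-like class 15 of 22 came from 1 cell of 28441 UMIs with 31.2% enzyme UMIs that was marked as a doublet, and in the mixed class 22 of 33 from 1 cell of 8649 UMIs with 20.1% enzyme UMIs. All 3 cells thus carried enzyme transcripts, which made up 41.4% of UMIs in acinar-like cells.

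Cells with islet hormone transcripts held Reg1 where they also held enzyme transcripts. The 22 cells with 10 or more UMIs of a hormone gene had Reg1 at 37531 CPM, but 32.6% of their UMIs were enzyme UMIs. The 9 of them in which hormone genes made up 5% or more of UMIs had Reg1 at 935 CPM and 0.999% enzyme UMIs, with 1 Reg2 UMI and 0 UMIs of Reg3a, Reg3b and Reg3g. In duct-like cells Reg2 had 0 UMIs, where 3 UMIs would have stood at 3.33 CPM.

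Set against all other kept cells, summed, with 10 CPM added to both sides, the level of Reg1 was 12.6-fold higher in acinar-like cells, that of Reg2 7.19-fold and that of Reg3d 6.59-fold. These 3 members passed a ratio of 4, which 0.622% of the 14951 genes with at least 50 UMIs passed. The ratios of Reg3a (2.94), Reg3b (2.53) and Reg3g (1.39) did not reach 4. The 10 CPM added lower the ratios of all members but Reg1 strongly, so these ratios do not rank the members. Without them, Reg2 stood at 106 against 6.19 CPM, Reg3d at 146 against 13.7 CPM and Reg3a at 26.4 against 2.38 CPM. Reg3b stood at 23.0 against 3.03 CPM and Reg3g at 4.58 against 0.522 CPM. Of the 158235 Reg1 UMIs in other cells, 112183 lay in the mixed epithelial class. Of 29 digestive enzyme genes, 24 passed the ratio, with a median of 10.5, and of 12 granule and acinar factor genes 11 passed, with a median of 9.50.

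The genes of the inducing pathway did not share this distribution. The median ratio of acinar-like to all other cells was 0.716 over all genes tested, and 4.76% of them were at least 4-fold lower. Digestive enzymes took 41.4% of UMIs in acinar-like cells, which lowers the CPM of all other genes there. The ratios were not computed again without enzyme UMIs, and the part of this load in the calls below was not tested. Of 13 genes of the STAT3 pathway, none was 4-fold higher and 5 were 4-fold lower, with a median of 0.375. These were Socs3, the feedback inhibitor of the pathway, at 23.4 against 236 CPM, Cebpb at 25.8 against 198 CPM and Cebpd at 23.5 against 294 CPM, both partners in acute phase transcription, and the immediate early genes Fos (838 against 3944 CPM) and Junb (197 against 1197 CPM). Stat3 itself stood at 111 CPM in acinar-like and 207 CPM in other cells. Of 9 cytokine receptor genes, 1 was 4-fold lower, Il6st, the signalling chain shared by the IL-6 family, at 35.2 against 187 CPM. Il22ra1, the IL-22 receptor chain, had 21 UMIs in acinar-like cells (1.92 CPM) and 13 in all other cells (0.340 CPM). Extl3, a glycosyltransferase proposed as a Reg receptor, was at 86.2 CPM in acinar-like and 40.1 CPM in other cells. Among 5 ligand genes with enough UMIs, Il6 was 4-fold lower in acinar-like cells (7.24 against 72.7 CPM), and Il22 had 3 UMIs there and 50 elsewhere. Of 16 genes of acinar injury and ductal change, 2 were 4-fold lower, Spp1 and Cd44, and none higher, with a median of 0.833.

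Cell-to-cell spread was lower in Reg1 and Reg3d, the members of highest level, than in Reg2, Reg3a and Reg3b. Reg2 was not far below Reg3d in level, at 106 against 146 CPM. The spread of a gene was taken as the squared coefficient of variation of its share of a cell's UMIs, with counting error taken out, so that 0 means that cells differ by no more than counting would give. Reg1 had a spread of 0.0593 and Reg3d of 0.0605, which correspond to coefficients of variation of 24.3% and 24.6%, and 17.2% and 17.5% of the 4669 genes with at least 200 UMIs had a lower one. Reg2 had a spread of 7.05, Reg3a of 2.01 and Reg3b of 15.4, coefficients of variation of 266%, 142% and 393%, and 99.4%, 96.0% and 99.8% of genes lay below them. So 3 of 5 members with enough UMIs exceeded a spread of 1, which 8.37% of all genes exceeded. The median over all genes was 0.203 and that of 28 digestive enzymes was 0.149, with a range of 0.0293 to 2.28. Reg3g had fewer than 200 UMIs and was not ranked. Deep cells weigh most in these estimates. With the limit of 10000 UMIs used in the methods of the study, the spread was 0.327 for Reg1, 0.311 for Reg3d, 22.6 for Reg2 and 7.17 for Reg3a, and after thinning to 800 UMIs it was 0.264 for Reg1, 1.56 for Reg3d and 19.5 for Reg2, so Reg3d then passed 1 as well.

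**Figure D2:**
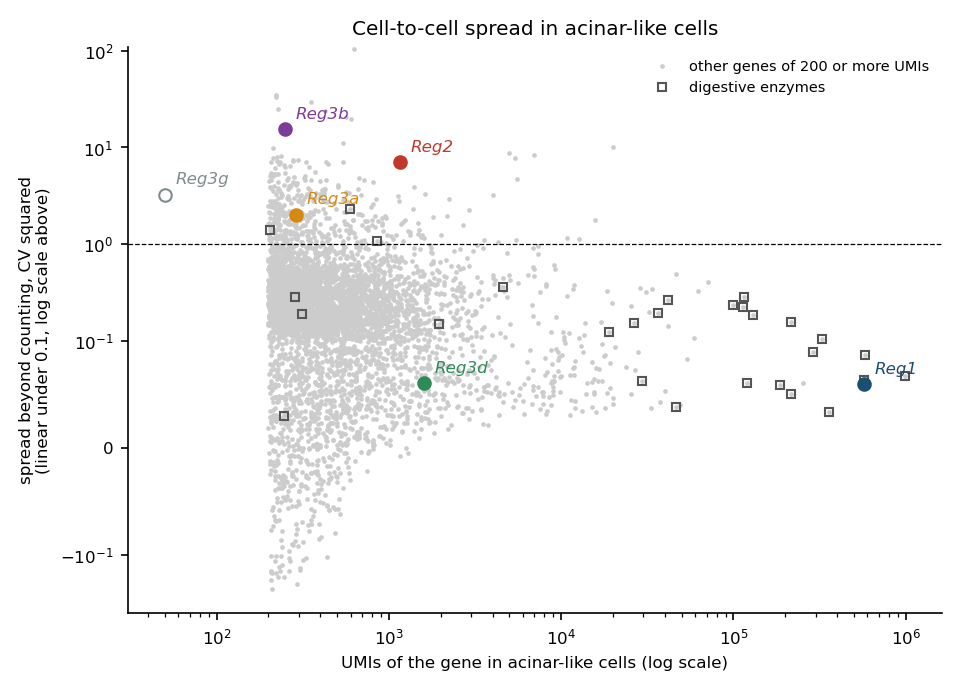
Cell-to-cell spread beyond counting error (squared coefficient of variation, linear under 0.1 and log above) against the UMIs of each gene in acinar-like cells (log scale), with grey points for other genes, open squares for digestive enzymes, labelled points for the Reg members and a dashed line at a spread of 1. Reg2, Reg3a and Reg3b lie above the line and Reg1 and Reg3d below it, in estimates on which deep cells weigh most.

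Counts of empty cells set Reg2 and Reg3b apart most clearly. Reg2 was at 0 in 76.0% of acinar-like cells, where an even share would leave 52.4% at 0, and Reg3b in 91.9% against 82.2%. The difference was smaller for Reg3a (84.7% against 80.2%) and for Reg3d (46.5% against 44.5%). The richest 54 cells (5%) for each gene held 87.3% of Reg3b UMIs, 73.0% of Reg2 and 60.1% of Reg3a, compared with 33.0% of Reg3d and 30.5% of Reg1. Such a share rises as a gene's UMIs become fewer, so Reg3a, Reg3b and Reg3d are read against an enzyme gene of like count. Beside Reg3a and Reg3b stand Amy2a2 (286 UMIs, spread 0.284) with 49.3% and Amy2a3 (246 UMIs, spread 0.0293) with 45.9%, and beside Reg3d stands Amy2a5 (1964 UMIs, spread 0.148) with 34.0%. These are near-identical copies of the pancreatic amylase gene, between which reads may be shared. Amy1 (204 UMIs, spread 1.41) was less even, with 56.9%. No enzyme gene matched Reg2 in count. Those next below it were Amy2a1 (849 UMIs, spread 1.08) with 49.4% and Pnlip (598 UMIs, spread 2.28) with 49.5%. Amy2a1 was at 0 in 72.7% of cells against 59.8% for an even share. A single cell held 17.1% of all Reg3b UMIs, and without it the spread of Reg3b was 7.02. Leaving out the richest cell moved the others less, to 6.32 for Reg2 and 1.68 for Reg3a, and to 0.0612 for Reg1 and 0.0607 for Reg3d.

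Within each cluster Reg2 again had a far larger spread than Reg1 and Reg3d. In cluster 5 the spread of Reg2 was 12.9, and 5.56 without its richest cell, beside 0.162 for Reg1 and 0.124 for Reg3d. In cluster 7 it was 7.93, and 6.93 without its richest cell, beside 0.0539 for Reg1 and 0.0572 for Reg3d. Reg3a and Reg3b had fewer than 200 UMIs in each cluster and are not given. In cluster 5, 48.9% of the 603 genes with at least 200 UMIs there had a lower spread than Reg1, and in cluster 7 20.6% of 4110 genes. The sets of genes differ, so these ranks are not set against each other. Over all acinar-like cells, the share of a cell's UMIs taken by Reg1 had a median of 4.66%, with 0.947% at the lowest twentieth, 9.49% at the highest twentieth and a maximum of 15.3%. In UMIs, the median was 249.5 per cell and the highest count 5540.

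**Figure D3:**
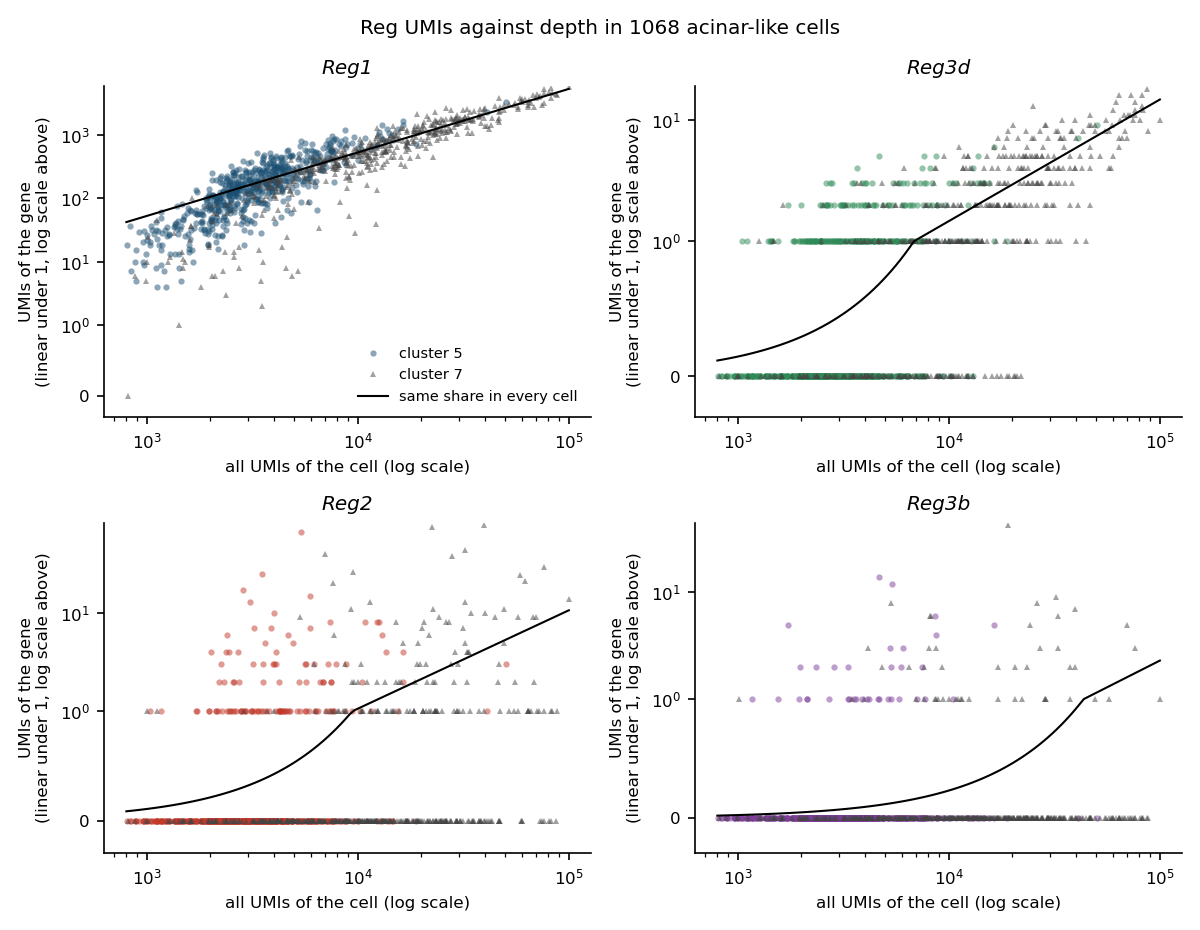
UMIs of Reg1, Reg3d, Reg2 and Reg3b in each of 1068 acinar-like cells against all UMIs of the cell (both log scales, the vertical axis linear under 1), with circles for cluster 5, triangles for cluster 7 and a line where every cell would hold the same share. Reg1 and Reg3d counts rise with depth along the line. The Reg1 share still ran from 0.947% to 9.49% of UMIs between the lowest and highest twentieth of cells. In cells of up to 3000 UMIs the level of Reg1 lay below the line. Reg2 and Reg3b are at 0 in most cells and far above the line in a few.

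Individual cells made this plain. The highest Reg2 counts were 79 in a cell of 39725 UMIs, 75 in one of 22363 UMIs and 66 in one of only 5357 UMIs. This last cell had 795 Reg1, 8 Reg3a, 12 Reg3b and 2 Reg3g UMIs as well. The highest Reg3b count was 43, in a cell of 19149 UMIs with 3 Reg2, 6 Reg3a and 8 Reg3d UMIs, so abundance of Reg3b did not always come with that of Reg2. The highest Reg3a count, 11, was in a cell of 23574 UMIs with 0 Reg2. For Reg3d the highest count was 18, in a cell of 86768 UMIs that had 0 UMIs of Reg2, Reg3a and Reg3b.

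Cells rich in Reg2 also held more Reg3a and Reg3b per UMI than the other acinar-like cells. The 54 acinar-like cells with 5 or more Reg2 UMIs held 848 of the 1161 Reg2 UMIs. They lay in both clusters, 18 in cluster 5 and 36 in cluster 7, and were deeper than the other 1014 cells, with a median of 17831 against 4349 UMIs. Reg3a stood at 61.9 CPM in them and 21.5 CPM in the others, a ratio of 2.87 (counting interval 2.19 to 3.73), and Reg3b at 61.9 and 17.7 CPM, a ratio of 3.50 (2.65 to 4.59). The ratio of Reg3g, from 50 UMIs in all, was 4.13 (2.18 to 7.59). Reg1 was closer, at 60660 against 51271 CPM (ratio 1.18, 1.17 to 1.19), and the interval of Reg3d included 1 (159 against 145 CPM, ratio 1.10, 0.945 to 1.27). Of the 5 members not used to choose these cells, 4 had an interval above 1, as did 3.21% of 9436 genes with at least 50 UMIs, while 8.61% had one below 1. The many UMIs of Reg1 make its interval narrow. For Reg3a and Reg3b the interval does not cover the gathering of their UMIs in few cells.

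The ratios kept their direction when shallow cells were left out, but the rich cells that remained held 1178864 of the 1308234 UMIs of the 54. Among cells over 12000 UMIs, 32 of them rich in Reg2 and 223 not, they were 2.36 for Reg3a, 2.41 for Reg3b, 1.15 for Reg1 and 1.04 for Reg3d. Depth was not matched there either, with a median of 31738 UMIs in the rich cells and 21981 in the others, and its part in the ratios was not tested. Without the 1 cell with most Reg2, Reg3a and Reg3b per UMI, they were 2.60 for Reg3a and 2.99 for Reg3b over all depths. The 15 cells with 5 or more Reg3b UMIs gave the converse, with Reg2 at 533 against 94.2 CPM (ratio 5.65, 4.76 to 6.68) and Reg3a at 142 against 23.1 CPM (6.16, 4.35 to 8.55). Without that same cell the ratio of Reg2 was 3.40 and that of Reg3a 5.11. Reg3d had a ratio of 1.35 (1.02 to 1.75), and of 1.32 with an interval that included 1 (0.998 to 1.72) without the cell. The cell left out held 66 Reg2 UMIs. Another of the 15, with 32014 UMIs, held 44 Reg2, 8 Reg3a and 9 Reg3b UMIs and was kept. The intervals do not cover such gathering of UMIs in few cells. Across all genes, 5.12% had an interval above 1 in the Reg3b-rich cells and 1.79% one below. A total of 7 cells belonged to both groups, so the ratios from the Reg3b-rich cells are not independent of those from the Reg2-rich cells.

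**Figure D4:**
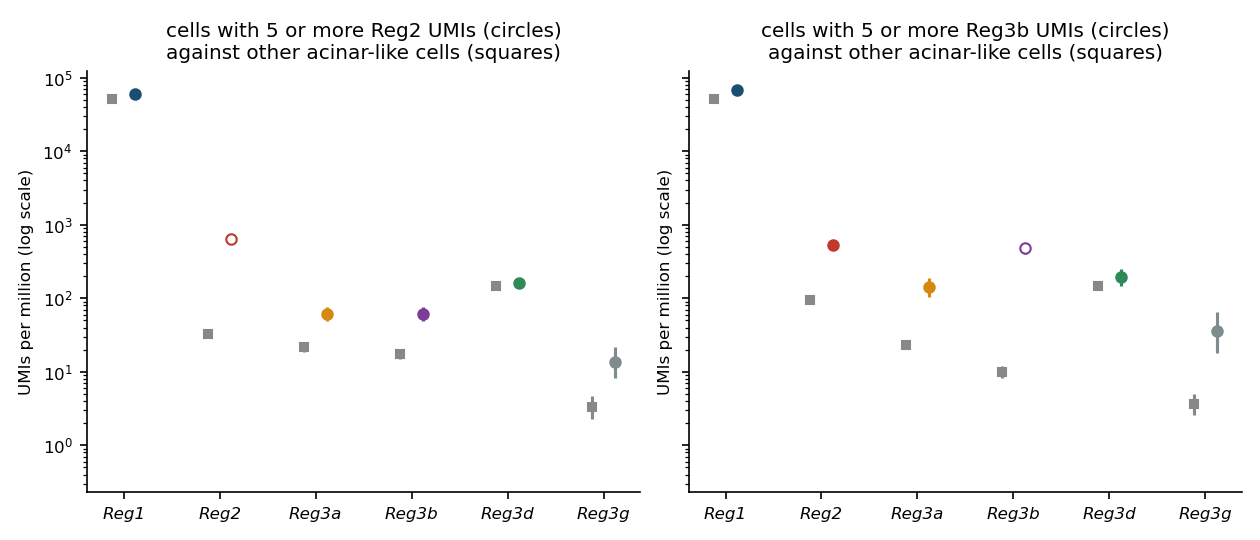
Level of each member, in CPM on a log scale with exact 95% Poisson intervals as bars, in acinar-like cells with 5 or more UMIs of Reg2 (left, 54 cells) or Reg3b (right, 15 cells), drawn as circles, and in the other acinar-like cells, drawn as squares; the gene that chose the cells is an open circle. Reg3a and Reg3g lie above the squares in both panels, Reg3d lies close to them, and Reg3b on the left and Reg2 on the right lie above.

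Enzyme genes stood slightly higher in the Reg2-rich cells and slightly lower in the Reg3b-rich cells. Of 29 enzyme genes 19 had an interval above 1 in the Reg2-rich cells and 4 below, beside the 3.21% above and 8.61% below of all genes. Their median ratio was 1.04, against 0.932 over all genes, and the high counts of enzymes make such intervals narrow. In the Reg3b-rich cells 2 were above and 10 below, beside 5.12% and 1.79% of all genes, with a median of 0.959. Among single genes of the Reg2-rich cells, Pnlip, which encodes pancreatic lipase, had a ratio of 2.57. The granule proteins Dmbt1 and Gp2 had ratios of 1.51 and 1.49. Of 14 genes of acinar injury and ductal change, none was above 1 and 5 were below (Sox9, Spp1, Cd44, Nupr1 and Atf3), and of 12 STAT3 pathway genes none was above and 3 were below (Cebpd, Fos and Junb). Of 6 receptor genes, Lifr was above (1.61) and Il6st (0.645) and Il11ra1 (0.536) below.

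Stat3 was among the 483 of 9436 genes with an interval above 1 in the Reg3b-rich cells. It was at 202 CPM in the 15 cells and 108 CPM in the others, a ratio of 1.87 (1.42 to 2.42), with a UMI in 10 of the 15, and Fos had a ratio of 1.21. These were 2 of 12 genes of that list above 1, and none was below, beside 5.12% above and 1.79% below of all genes. Socs3, a target of STAT3, had 9 UMIs and a ratio of 1.28 with a wide interval (0.580 to 2.48). None of these intervals, that of Stat3 included, covers a gathering of UMIs in few cells. Of 14 genes of acinar injury and ductal change, 2 were above 1 and 1 below, beside the same shares of all genes. With so few genes, neither count is read as a result about its list. Above were Cd44, with a ratio of 2.19 (1.32 to 3.44) from 20 UMIs in 7 cells, and the keratin gene Krt8 (1.46), and below was the stress response gene Nupr1 (0.827). Sex chromosome transcripts moved with this choice of cells as well, with a ratio of 0.187 for Xist, 3.35 for Uty, 2.46 for Eif2s3y and 2.43 for Ddx3y, and their part in the ratios was not tested. The ratio of Stat3 was 1.82 among cells over 12000 UMIs, 8 of them rich in Reg3b, and 1.90 without the cell richest in the members. These 8 cells held 260259 of the 302323 UMIs of the 15, and the cell left out held 5357. Neither value is therefore an independent check. The difference between the Reg2-rich and Reg3b-rich cells was not tested.

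Pairwise correlations over the 1068 thinned cells were weak, as the few UMIs allow, and are given as a description. Pearson's r (Spearman's rho) was 0.21 (0.06) for Reg2 and Reg3a, 0.21 (0.23) for Reg2 and Reg3b, 0.16 (0.19) for Reg3a and Reg3b and 0.15 (0.16) for Reg1 and Reg2, and that of Reg3d with Reg2, Reg3a and Reg3b was 0.03, 0.02 and -0.01. A correlation of rates, in which counting error is taken out and deep cells weigh most, did not set Reg3d apart in the same way. It was 0.389 for Reg3d and Reg3a, 0.365 for Reg3d and Reg3b and 0.138 for Reg3d and Reg2, beside 0.477 for Reg2 and Reg3a, 0.224 for Reg2 and Reg3b, 0.553 for Reg3a and Reg3b and 0.566 for Reg1 and Reg3d. Without the richest cells the values of Reg3d with Reg3a, Reg3b and Reg2 were 0.572, 0.209 and 0.216. Only Reg1 had enough UMIs for its likeness to other genes to be read. The genes most like it were Cela2a (r = 0.70), 2210010C04Rik (0.69), Cela3b (0.68), Ctrb1 (0.65) and Pnliprp1 (0.65). All but 2210010C04Rik are on the list of digestive enzymes used here. The 252211 UMIs of 2210010C04Rik in acinar-like cells are thus not part of the enzyme shares given. The genes least like Reg1 were Malat1 (-0.46), mt-Atp6 (-0.38) and Tmsb10 (-0.37). These cells share 1 library, and a common enzyme load enters every such value. For Reg2 the highest r was 0.16 (Cdc25a) and for Reg3d 0.14 (Vamp7), at which no likeness was read.

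The pool held both sexes, and acinar-like cells could be sorted in part by transcripts of Xist, expressed from the inactive X chromosome, and of Y-linked genes. A total of 395 cells had a Xist UMI and no UMI of a Y-linked gene, 100 had the reverse, 182 had both and 391 neither. Depth differed between these groups, with medians of 4713, 7403, 18813 and 3010 UMIs in that order. Between the first 2 groups, Reg1 was at 48766 CPM (48547 to 48986) with Xist and 57562 CPM (57103 to 58025) with Y-linked transcripts. Reg2 stood at 78.3 CPM (69.7 to 87.6) and 125 CPM (104 to 148), and Reg3a at 16.2 CPM and 36.4 CPM, again without overlap of the intervals. Such intervals do not cover the gathering of UMIs in few cells. The richest 54 acinar-like cells for each gene held 73.0% of Reg2 and 60.1% of Reg3a UMIs. The cells with both kinds of transcript had Reg1 at 52054 CPM and Reg2 at 113 CPM. Those with neither had Reg1 at 59436 CPM, above both sorted groups, and Reg2 at 148 CPM, within counting error of the cells with Y-linked transcripts alone. The intervals of Reg3b (21.0 and 23.0 CPM), Reg3d (143 and 150 CPM) and Reg3g (4.62 and 6.70 CPM) overlapped. In the 54 Reg2-rich cells Xist was at 191 CPM against 545 CPM in the others, a ratio of 0.351, and the Y-linked genes Ddx3y, Eif2s3y, Uty and Kdm5d had ratios of 2.30, 2.19, 1.98 and 1.28. Of these 54 cells, 14 had Xist alone, 6 Y-linked transcripts alone, 25 both and 9 neither. Since few mice were pooled and no cell can be assigned to its animal, sex and animal cannot be told apart, and the part of depth was not tested, for Reg2 or for any other member.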

How the data were processed

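The library was made with the 10x single cell 3′ v3.1 kit from dissociated, dead-cell-depleted tissue. The authors deposited counts, raw UMI numbers for each gene in each barcode, and the submitters' processing notes name Cell Ranger 7.1.0 and the build mm10. Barcodes were kept between 800 and 100000 UMIs if mitochondrial genes made up less than 15%, and an upper limit of 10000, as in the methods of the study, was an alternative. They were clustered in R 4.3.3 with Seurat 5.3.0 (2000 variable genes without Reg genes, 30 principal components, 20 neighbours, resolution 0.5). A class needed 3 markers at 2-fold or more in 10% of cells, a rule set after the clusters had been seen. Scrublet in scanpy 1.11.5 (expected rate 0.08, score threshold 0.2577) marked 537 cells (4.905%), which were kept. UMIs were summed per class and scaled to 1000000, with exact Poisson 95% intervals (ratios: exact binomial interval of the split of counts), and limits for 0 stand at 3 counts. Reads of free RNA were not subtracted. Intervals cover counting error only, and no test was made with 1 library.

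Spread was estimated by the method of moments, which gives deep cells most weight, for genes of 200 UMIs or more. Python 3.11.15, numpy 2.4.6, scipy 1.17.1, pandas 2.3.3 and matplotlib 3.10.9 were used, and the functions were tested on simulated data. Named genes are the members, lists of enzymes, granule and acinar factors, cytokines, receptors, STAT3 pathway, injury and sex chromosome genes, and the genes most and least correlated with a member. Members and lists were chosen with earlier results of these data known. Cells rich in Reg2 or Reg3b were described after their values were seen. Coordinates are from GENCODE M21 (GRCm38) and promoters from RefSeq (GRCm38.p6).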

Additional observations from a re-analysis of the deposited data

How the results depend on the processing

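The summed level of the 6 members in acinar-like cells, 52703 CPM, was 50775 CPM with an upper limit of 10000 UMIs, 51194 with a lower limit of 1500 UMIs, 46323 with a mitochondrial limit of 5%, 54175 without cells marked by Scrublet, 53372 and 43824 at clustering resolutions of 1.0 and 0.2, 53391 with 20 principal components, 53209 with the Reg genes kept among the variable genes, 98898 with enzyme and Reg UMIs taken out of the denominator, 48561 with each cell weighted equally and 50304 in cells with at least 5 Malat1 UMIs. In cells without a T cell marker UMI, an alternative added after the data were seen, it was 53238. The share of Reg UMIs in acinar-like cells, 78.3%, was 76.1%, 78.2%, 92.8%, 77.7%, 76.7%, 95.9%, 79.5% and 77.3% under the first 8 of these, in that order, and these 8 settings named 691 to 1494 cells acinar-like. The spread of Reg1 was 0.327 with the upper limit of 10000 UMIs, 0.181 with the mitochondrial limit of 5%, 0.203 at the resolution of 0.2, 0.125 with the reduced denominator and 0.264 after thinning. That of Reg3d was 0.311, 0.162, 0.177, 0.117 and 1.56 under these settings. That of Reg2 was 22.6 with the upper limit and 19.5 after thinning, and that of Reg3a was 7.17 and -1, the latter from 22 UMIs in 22 cells of a random thinning other than the one behind the shares of cells. That of Reg3b was 58.2 after thinning and 7.02 without its richest cell, which was left out after the data were seen. Reg2 and Reg3b had a larger spread than Reg1 and Reg3d in 14 of 14 settings, the reported one included, and Reg3a in 13 of 14, all but thinning. No paired analysis was possible because there is 1 library, and no replicate could be left out. At this depth the spread of Reg3g, with 50 UMIs, could not be ranked.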
